A study of Mus musculus with 6 samples.

Results

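The transcripts of 8 genes that mark the endothelial surface or the sprouting tip cell were followed across all libraries of the series: Cd34, Emcn, Prom1, Eng, Mcam, Plvap, Esm1 and Egfl7. They were taken by symbol from the deposited table, which holds 30055 gene symbols, of which 21863 had a count and 15035 passed the filter on low counts, among them all 8. RNA was sequenced from cultured lung endothelial cells of mice lacking Ch25h, the gene for cholesterol 25-hydroxylase, and this knockout is shared by every group. The mice were of strain C57BL6, 3 weeks old and labelled female. Vehicle cells received PBS, TEV cells received extracellular vesicles of MC38 mouse colorectal tumour cells at 20 µg per ml for 12 h, and TEV plus reserpine cells received 10 µM reserpine, a blocker of vesicular monoamine transport, for 8 h before the same vesicles. Each of the 3 groups held 2 libraries. No group received reserpine without vesicles, and the design text can also be read as reserpine given to all cells, whereas the groups used here are those of the sample labels. Nothing in the sources tells if replicates came from different cultures or mice, and p-values therefore measure only the spread between these libraries.

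CD34, endomucin (Emcn) and prominin-1 (CD133, Prom1) are heavily glycosylated membrane proteins, the former 2 being sialomucins of the luminal endothelial surface. Endoglin (Eng) is a co-receptor for ligands of the TGF-beta and BMP families, MCAM (CD146) is an adhesion molecule of the immunoglobulin superfamily, and PLVAP builds the diaphragms of caveolae and fenestrae. Endocan, the product of Esm1, is a secreted dermatan sulphate proteoglycan and a widely used marker of tip cells, which lead a growing vessel sprout, and EGFL7 is a matrix-bound protein secreted by endothelial cells. In the mouse reference annotation (GENCODE M21, GRCm38) the genes lie at chr1:194938819-194961279 (Cd34), chr3:137341067-137432185 (Emcn), chr5:43993620-44102032 (Prom1), chr2:32646595-32682669 (Eng), chr9:44134469-44142727 (Mcam), chr8:71497765-71511752 (Plvap), chr13:113209659-113218098 (Esm1) and chr2:26580014-26593120 (Egfl7), with Prom1 and Plvap on the minus strand.

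Library depth ranged from 22270657 to 81225627 estimated counts, and levels below are CPM (counts scaled to the library size, here with TMM factors). Ch25h reads ranged from 0.313 to 1.07 CPM over the 6 libraries, so the reads did not check the genotype. Pecam1 (735 and 747 CPM in vehicle, 2028 and 1927 in TEV, 1748 and 1769.9 in TEV plus reserpine) and Cdh5 (1751 and 1748, then 2272 and 2241, then 2827 and 2815), which encode junction proteins of all endothelium, were abundant throughout. The summed level of 13 fibroblast markers was 3491 and 3033 CPM in the vehicle libraries, against 344 and 402 CPM in TEV and 511 and 459 CPM in TEV plus reserpine. Among these markers, Col1a2, a collagen chain, stood at 1467 and 1249.7 CPM in vehicle and between 1.30 and 2.68 CPM in the other 4 libraries, and Tcf21 was at 0 in those 4 libraries. Of 12 fibroblast markers tested, 11 were lower in TEV than in vehicle and Thy1 was higher. Thy1 alone held 286 and 333 CPM in TEV and 409 and 375 CPM in TEV plus reserpine, most of those sums. In each TEV library 2 markers were at 0, and 3 in each TEV plus reserpine library, against none in vehicle. The pericyte and smooth muscle markers summed to 2049 and 2024 CPM in vehicle, 783 and 893 CPM in TEV, and 943 and 866 CPM in TEV plus reserpine. Most of the TEV sums came from Tagln, at 824 and 846 CPM in vehicle and 648 and 719 CPM in TEV. All 11 markers of this list that were tested were lower in TEV than in vehicle, with a median log2 change of -2.92. Markers of colon tumour epithelium, the source of the vesicles, summed to 28.7 and 27.8 CPM, 69.3 and 73.6 CPM, and 70.9 and 65.7 CPM. Of 9 of these tested, 3 were higher, among them the keratin gene Krt18 (5.88 and 5.36 CPM in vehicle, 30.6 and 32.1 CPM in TEV), and 3 were lower in TEV than in vehicle, and the geometric mean of the list was 0.500 and 0.492 CPM in vehicle and 0.633 and 0.462 CPM in TEV. The sum of 12 endothelial markers was 4221 and 4196 CPM in vehicle, 5729.7 and 5776 CPM in TEV, and 7108 and 6958 CPM in TEV plus reserpine. That sum is carried by its abundant genes: of the 12, 6 were higher and 5 lower in TEV than in vehicle, and their geometric mean was 170 and 167 CPM in vehicle, 116 and 135 CPM in TEV, and 218 and 202 CPM in TEV plus reserpine. Of 7 markers of lymphatic endothelium, 5 were lower and none higher in TEV than in vehicle. They summed to 1708 and 1697 CPM in vehicle, 1231 CPM in each TEV library, and 1349 and 1343 CPM in TEV plus reserpine. Their geometric mean was 125 and 123 CPM in vehicle, 38.0 and 36.3 CPM in TEV, and 45.5 and 33.3 CPM in TEV plus reserpine. Geometric means were taken after adding a small offset, so a scarce marker that reaches 0, here Ccl21a, weighs heavily. Ccl21a was at 2.44 and 2.40 CPM in vehicle, 0 in both TEV libraries, and 0.0893 and 0 CPM in TEV plus reserpine. In such bulk RNA, fewer cells of a type and less RNA per cell cannot be told apart. The part of these marker differences in the changes of members and of other genes and lists described below was not tested.

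**Figure D1:**
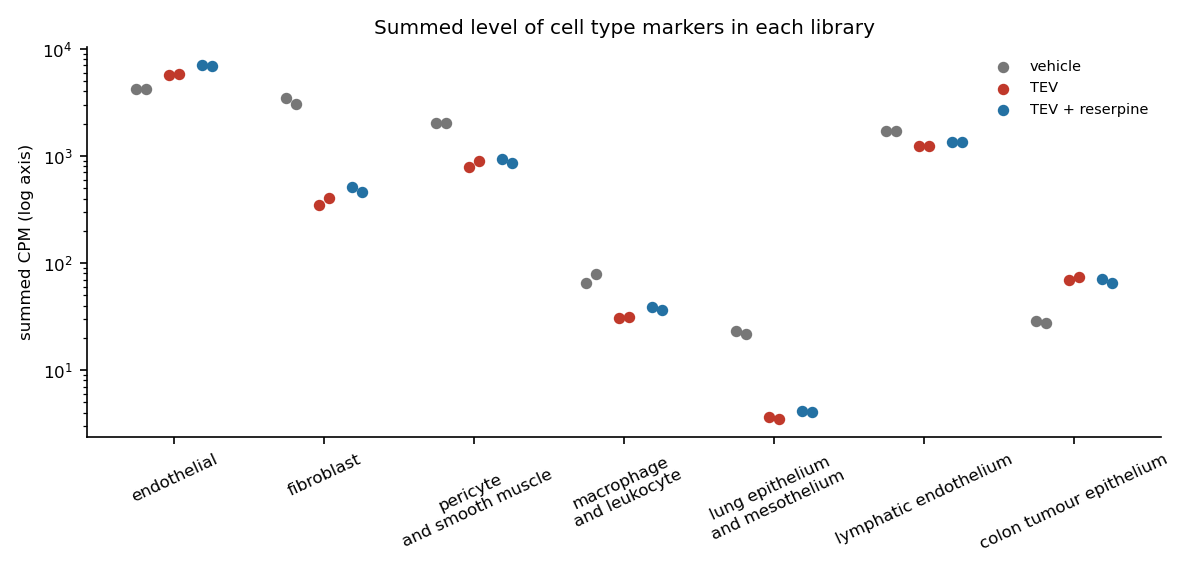
Summed CPM (log axis) of 7 lists of cell type markers, 1 point per library, with grey for vehicle, red for TEV and blue for TEV plus reserpine. The fibroblast sum lies above 3000 CPM in vehicle alone, while the endothelial sum is between 4196 and 7108 CPM in all libraries.

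Against vehicle, 7 of the 8 genes were higher in TEV and none was lower, where 25.1% of the 15035 genes tested were called higher and 24.6% lower (edgeR quasi-likelihood test, Benjamini-Hochberg adjusted p under 0.05). The gene outside that count was Mcam. In TEV plus reserpine against TEV, 5 of the 8 were lower (Cd34, Eng, Plvap, Emcn and Esm1) and 1 was higher (Mcam), where 16.0% of all genes were called lower and 15.7% higher. All 8 were above vehicle in TEV plus reserpine, where 19.1% of all genes were called higher and 19.9% lower. The median log2 change over the 8 genes was 2.40 for TEV against vehicle, -0.37 for TEV plus reserpine against TEV and 1.50 for TEV plus reserpine against vehicle, beside 0.01, 0.00 and -0.02 over all genes tested. The shares over all genes given here are also those to set beside the counts of the gene lists below. The 3 comparisons share libraries pairwise and are not independent of each other. Scaling to 12 endothelial markers gave medians over all genes of 0.44, -0.74 and -0.34, called 8 members higher, 7 lower and 7 higher in these comparisons, and turned the sign of Mcam in each of them. The changes with reserpine given below, for members and lists, are therefore relative to the TMM-scaled total, and the positive list medians are smaller than the shift of all genes under that scaling.

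**Figure D2:**
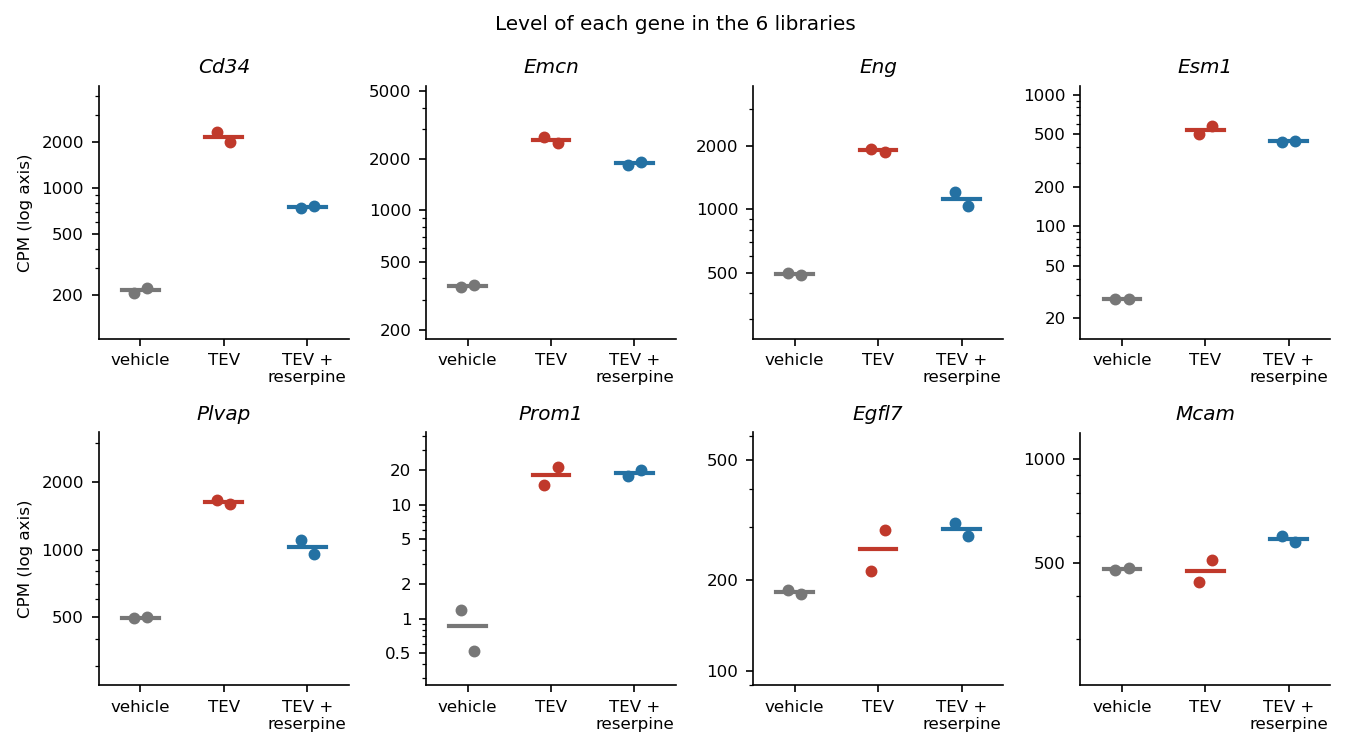
CPM (log axis, with its own range in each panel) of the 8 genes in the 6 libraries, with points for libraries and bars for the mean of each group. The TEV points of Cd34, Emcn, Eng, Esm1, Plvap and Prom1 lie well above the vehicle points, and those of Mcam lie on either side of them.

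**Figure D3:**
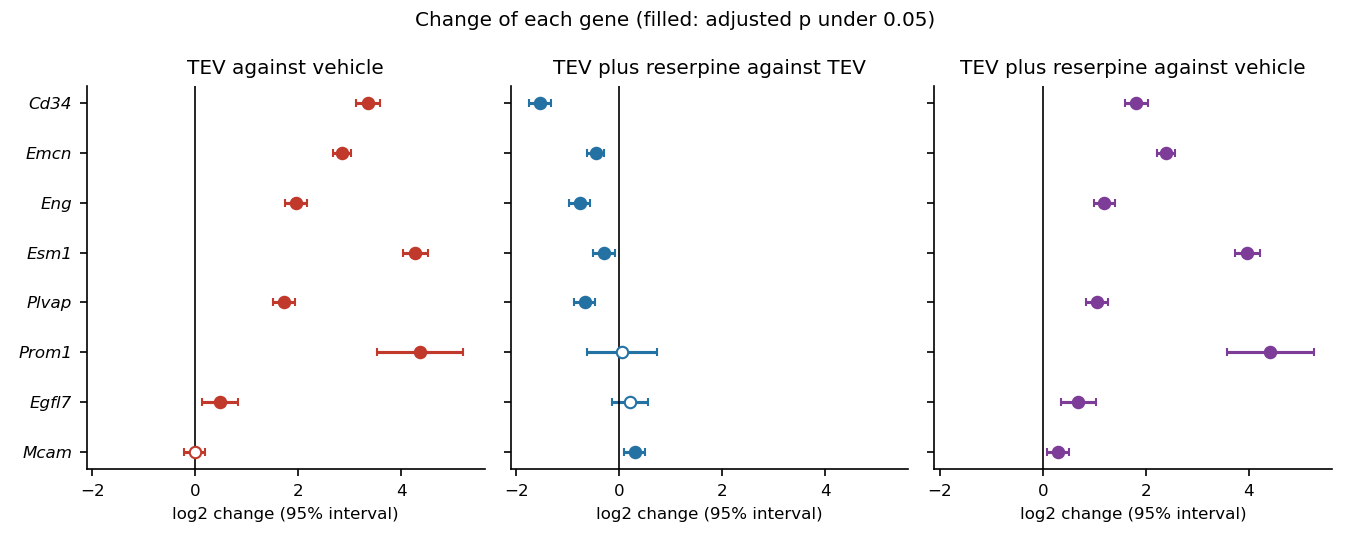
Log2 change of each gene in the 3 comparisons, with 95% intervals from the edgeR model. Filled points have an adjusted p under 0.05, and open points, which are Mcam in TEV against vehicle and Prom1 and Egfl7 in TEV plus reserpine against TEV, do not.

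Promoter sequences are shown for Cd34, Emcn and Eng, which rose with TEV and were lower again with reserpine, and for Esm1, which had the largest rise among the abundant members. Each covers the 230 bases from 250 to 21 bases before the RefSeq start site (build GRCm38.p6, plus strand of the chromosome and of the gene), at chr1:194938571-194938800 for Cd34, chr3:137340828-137341057 for Emcn, chr2:32646345-32646574 for Eng and chr13:113209409-113209638 for Esm1. Capitals mark AGGAAG on either strand, so that CTTCCT is the same element read from the other strand. These letters hold GGAA, the core bound by ETS factors, a family with many endothelial members. That core alone, also read as ttcc, occurs outside the capitals, in the Esm1 window as well.
Cd34: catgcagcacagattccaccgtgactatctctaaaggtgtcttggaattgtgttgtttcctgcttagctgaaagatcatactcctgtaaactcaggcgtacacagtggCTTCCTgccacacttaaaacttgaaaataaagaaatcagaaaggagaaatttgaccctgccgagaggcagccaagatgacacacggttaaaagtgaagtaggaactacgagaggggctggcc
Emcn: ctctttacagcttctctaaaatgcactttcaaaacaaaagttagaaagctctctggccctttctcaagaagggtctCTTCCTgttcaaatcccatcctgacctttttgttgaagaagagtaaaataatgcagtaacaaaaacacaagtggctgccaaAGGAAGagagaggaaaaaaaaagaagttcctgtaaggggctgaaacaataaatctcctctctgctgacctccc
Eng: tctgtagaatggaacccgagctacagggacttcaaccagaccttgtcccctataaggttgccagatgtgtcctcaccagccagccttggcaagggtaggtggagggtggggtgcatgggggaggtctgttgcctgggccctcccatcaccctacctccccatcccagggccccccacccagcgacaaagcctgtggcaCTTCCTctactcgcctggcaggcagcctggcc
Esm1: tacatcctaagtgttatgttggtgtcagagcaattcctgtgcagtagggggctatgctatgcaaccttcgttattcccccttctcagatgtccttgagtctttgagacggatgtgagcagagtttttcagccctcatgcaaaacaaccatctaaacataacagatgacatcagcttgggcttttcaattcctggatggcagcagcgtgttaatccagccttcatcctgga
The Emcn window held 2 matches to AGGAAG, the Cd34 and Eng windows 1 each and the Esm1 window none. Of the 32851 RefSeq promoter windows of the same length, 27.2% held at least 1. Among the members not shown, the 3 Egfl7 windows held 3, 1 and 0 matches, the 2 Prom1 windows 0 and 4, and the Mcam window none. GGGCGG, the box bound by Sp1, which 29.8% of all windows hold on either strand, had 5 copies in the Mcam window, 3 in an Egfl7 window and 1 in a Prom1 window. Neither CCGGAA (10.3% of windows), ACGTG (15.1%, the core of hypoxia elements) nor TATAAA (11.8%) was present in any window of the 7 members that had one, and Plvap had no entry. A match is a description of these letters and not evidence of binding.

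Among the sialomucins, Cd34 differed most between the groups. Its level was 206 and 222 CPM in vehicle, 2341 and 2018 CPM in TEV, and 745 and 757 CPM in TEV plus reserpine. The 3 groups did not overlap, with TEV highest and vehicle lowest. Cd34 was 10.2-fold higher in TEV than in vehicle (log2 change 3.35, SE 0.10, adjusted p = 3.75e-06), which placed it 208th from the top of 15035 genes. In TEV plus reserpine its level was 34.5% of that in TEV (log2 change -1.54, SE 0.09, adjusted p = 0.00034) and still 3.52-fold that in vehicle (log2 change 1.81, adjusted p = 5.25e-05). The fall of Cd34 was the largest among the 8 genes in the estimate, and its 95% interval, from -1.76 to -1.32, did not overlap that of any other member.

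Emcn rose nearly as far but kept more of its rise under reserpine. The libraries held 356 and 365 CPM in vehicle, 2680.1 and 2484 CPM in TEV, and 1852 and 1925 CPM in TEV plus reserpine, again with no overlap between groups. Emcn was 7.17-fold higher in TEV than in vehicle (log2 change 2.84, SE 0.07, adjusted p = 2.97e-06). With reserpine it stood at 73.1% of the TEV level (log2 change -0.45, SE 0.07, adjusted p = 0.0052) and at 5.24-fold the vehicle level (log2 change 2.39, adjusted p = 6.59e-06). Scaled to endothelial markers, the change of Emcn from TEV was -1.21 on the log2 scale. The ratio of Cd34 to Emcn CPM within a library, a measure chosen after the levels were seen, was 0.578 and 0.608 in vehicle, 0.874 and 0.812 in TEV, and 0.402 and 0.393 in TEV plus reserpine. The balance between the 2 sialomucins therefore lay towards Cd34 in TEV and below its vehicle value in TEV plus reserpine, and the ratio was given no test.

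Prom1 was scarce in vehicle, and no difference between the vesicle groups passed the test. It had 50.6 and 15.1 estimated counts in the vehicle libraries, or 1.18 and 0.522 CPM, against 15.0 and 21.5 CPM in TEV and 18.0 and 20.2 CPM in TEV plus reserpine. The vehicle libraries lay below all others, and the vesicle groups overlapped. Prom1 was 20.5-fold higher in TEV than in vehicle (log2 change 4.36, SE 0.35, adjusted p = 0.000144), with a 95% interval from 3.52 to 5.20 on the log2 scale. The vehicle libraries set the size of this change, which was 5.13 without vehicle replicate 1 and 3.95 without vehicle replicate 2. The difference between TEV plus reserpine and TEV was 0.06 on the log2 scale (adjusted p = 0.897), with a 95% interval from -0.61 to 0.73 that leaves room for a change of the size seen in Emcn or Esm1. Scaled to endothelial markers, that difference was -0.67 (adjusted p = 0.0534). Against vehicle, TEV plus reserpine was 21.4-fold higher (log2 change 4.42, adjusted p = 0.000211), or 5.18 and 4.01 on the log2 scale without vehicle replicates 1 and 2.

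The other genes of the CD34 family moved opposite to Cd34. Podxl, which encodes podocalyxin, held 154 and 150.2 CPM in vehicle, 37.5 and 51.3 CPM in TEV, and 112 and 127 CPM in TEV plus reserpine. It fell with TEV (log2 change -1.77, adjusted p = 0.00019) and rose with reserpine (log2 change 1.42, adjusted p = 0.00158). Podxl2, the gene of endoglycan, was low at 3.90 and 3.03 CPM in vehicle, and also fell with TEV (log2 change -1.97, adjusted p = 0.00312) and rose with reserpine (log2 change 1.38, adjusted p = 0.0228, but up to 0.0962 without TEV replicate 1 or either TEV plus reserpine library, and 0.67 with adjusted p = 0.108 under the endothelial marker scaling). Transcripts of the enzymes that build O-linked glycans on such mucins did not move in a common direction. Of 27 tested, 7 were higher and 7 lower in TEV than in vehicle (median log2 change -0.08). These counts lie near the shares over all genes, 25.1% higher and 24.6% lower. In TEV plus reserpine against TEV, 2 were higher and 5 lower (median -0.14), beside 15.7% and 16.0% of all genes. Chst2, a sulphotransferase that modifies sialomucin glycans, had 51.8 and 47.1 CPM in vehicle, 208 and 138 CPM in TEV, and 17.9 and 15.9 CPM in TEV plus reserpine (log2 changes 1.80 and -3.36, adjusted p = 0.000442 and 0.000369). Galnt3, which starts O-glycan chains, rose with TEV (log2 change 1.94, adjusted p = 0.000187) and differed by -0.16 with reserpine (adjusted p = 0.461).

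Of the receptors, Eng was higher with TEV and lower again with reserpine. Its level was 496 and 486 CPM in vehicle, 1936 and 1882 CPM in TEV, and 1206 and 1038 CPM in TEV plus reserpine, and no groups overlapped. Eng was 3.89-fold higher in TEV than in vehicle (log2 change 1.96, SE 0.09, adjusted p = 1.69e-05). With reserpine it was at 58.8% of the TEV level (log2 change -0.77, SE 0.09, adjusted p = 0.00188) and 2.29-fold above vehicle (log2 change 1.19, adjusted p = 0.000154). Its overlapping gene on the other strand, Fpgs, had far lower levels.

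The genes of the pathway in which endoglin acts were not raised as a group. Of 21 tested genes for ligands, receptors, SMAD proteins and targets, 9 were higher and 7 lower in TEV than in vehicle (median log2 change -0.03), and 7 were higher and 2 lower in TEV plus reserpine than in TEV (median 0.25). Acvrl1, which encodes the signalling receptor ALK1 that endoglin assists, had 163 and 162 CPM in vehicle, 201 and 209 CPM in TEV, and 257 and 244 CPM in TEV plus reserpine. It rose with TEV (log2 change 0.33, adjusted p = 0.0084) and was higher again with reserpine (log2 change 0.29, adjusted p = 0.0245), the opposite sign to Eng, although scaling to endothelial markers turned this value to -0.46. The first Acvrl1 call was lost without either vehicle library (adjusted p = 0.0574 and 0.0593) and the second without any library other than TEV replicate 2 (0.0559 to 0.108). The paired type II receptor Bmpr2 was lower in TEV (log2 change -0.41, adjusted p = 0.0395, but 0.0746 to 0.168 without any vehicle or TEV library, and a log2 change of 0.032 with the endothelial marker scaling), and Tgfbr3, the gene of betaglycan, which resembles endoglin, fell by 1.83 on the log2 scale (adjusted p = 9.75e-05). Among ligands, Bmp4 rose with TEV (log2 change 2.19, adjusted p = 0.000184) while Bmp2 fell by 3.89 (adjusted p = 7.37e-05). Smad1, a transducer of BMP signals, changed in the same directions as Eng, by 0.46 with TEV (adjusted p = 0.00268) and -0.59 with reserpine (adjusted p = 0.0028).

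Mcam was the member that TEV did not measurably change. It held 476 and 482 CPM in vehicle and 441 and 508 CPM in TEV, so that the TEV libraries lay on either side of the vehicle libraries, and 599 and 574 CPM in TEV plus reserpine. The log2 change with TEV was -0.01 (SE 0.09, adjusted p = 0.921), and its 95% interval, from -0.22 to 0.20, lay below those of the 6 members that rose by 1.72 or more. In TEV plus reserpine Mcam was higher than in TEV by 0.30 on the log2 scale (adjusted p = 0.0383) and higher than in vehicle by 0.29 (adjusted p = 0.0366). The difference from TEV was not called without any single library other than TEV replicate 2 (adjusted p from 0.0672 to 0.166), nor that from vehicle without any of the vehicle or TEV plus reserpine libraries (0.0838 to 0.148). Scaled to endothelial markers, the 3 log2 changes of Mcam turned to 0.42, -0.44 and -0.024. Of its partners, Lama4, a laminin chain of the endothelial basement membrane to which MCAM binds, had 385 and 447 CPM in vehicle, 321 and 396 CPM in TEV, and 660.0 and 617 CPM in TEV plus reserpine (log2 changes -0.21, adjusted p = 0.19, and 0.83, adjusted p = 0.00462), of which the second was 0.092 with the endothelial marker scaling (adjusted p = 0.546). Lgals3, the gene of galectin-3, which binds MCAM, fell by 1.59 with TEV (adjusted p = 3.18e-05), and Wnt5a, for which MCAM has been described as a receptor, fell by 1.32 (adjusted p = 0.0003).

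Plvap followed Eng closely in level and in both changes. The libraries held 496 and 497 CPM in vehicle, 1668 and 1601 CPM in TEV, and 1107 and 950.4 CPM in TEV plus reserpine, without overlap between groups. Plvap was 3.29-fold higher in TEV than in vehicle (log2 change 1.72, SE 0.09, adjusted p = 2.74e-05), and with reserpine it stood at 62.9% of the TEV level (log2 change -0.67, SE 0.09, adjusted p = 0.00302). It remained 2.07-fold above vehicle (log2 change 1.05, adjusted p = 0.000254).

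Of 11 genes of caveolae, fenestrae and their partners, 2 were higher and 4 lower in TEV than in vehicle (median log2 change -0.03), and 6 were higher and 1 lower in TEV plus reserpine than in TEV (median 0.52). The genes higher with TEV were Ehd4, an ATPase that remodels membranes, at 199 and 218 CPM in vehicle and 754 and 702 CPM in TEV (log2 change 1.81, adjusted p = 1.76e-05), and Cav1, which encodes the caveolin that shapes caveolae, at 309 and 302 CPM in vehicle and 714 and 895 CPM in TEV (log2 change 1.40, adjusted p = 0.000147). With reserpine Ehd4 was lower (log2 change -0.47, adjusted p = 0.00793), as Plvap was, and Cav1 was higher (log2 change 0.52, adjusted p = 0.0155), with adjusted p = 0.0777 and 0.0531 without TEV plus reserpine replicates 1 and 2 and a log2 change of -0.22 under the endothelial marker scaling. Sdpr, the gene of the caveolar coat protein cavin-2, fell from 519 and 449 CPM in vehicle to 62.8 and 108 CPM in TEV (log2 change -2.50, adjusted p = 0.000294) and stood at 283 CPM in both TEV plus reserpine libraries.

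Esm1 had the largest rise among the abundant members and, on the TMM scale, kept most of it under reserpine. It was at 28.1 and 28.0 CPM in vehicle, 502 and 581 CPM in TEV, and 434 and 446 CPM in TEV plus reserpine. The groups did not overlap, and the gap between vehicle and the rest was far wider than that between the vesicle groups. Esm1 was 19.3-fold higher in TEV than in vehicle (log2 change 4.27, SE 0.10, adjusted p = 2.18e-06), ranking 122nd from the top of 15035 genes. With reserpine it stood at 81.3% of the TEV level (log2 change -0.30, SE 0.09, adjusted p = 0.0422), a call that ended without any single library other than TEV replicate 1 (adjusted p from 0.0757 to 0.169). The Esm1 call against TEV was also lost with library size alone, with only the compared groups in the fit and with the replicate block. Scaled to endothelial markers, the change from TEV was -1.04 on the log2 scale. Against vehicle, TEV plus reserpine was 15.7-fold higher (log2 change 3.97, adjusted p = 3.55e-06).

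Most genes of a list drawn up around tip cells did not rise with Esm1. The list is not limited to tip cell markers, and which cell types held its transcripts was not tested. Of 25, 4 were higher and 16 lower in TEV than in vehicle (median log2 change -0.82), and 14 were higher and 3 lower in TEV plus reserpine than in TEV (median 0.38). Angpt2, the gene of the vessel-destabilizing ligand angiopoietin-2, resembled the members that rose and fell back, at 298 and 333 CPM in vehicle, 2309 and 2109 CPM in TEV, and 1211 and 1197 CPM in TEV plus reserpine (log2 changes 2.81 and -0.88, adjusted p = 4.93e-06 and 0.00109). Apln, a tip cell ligand, rose in each step, from 174 and 188 CPM in vehicle to 437 and 759.5 CPM in TEV and 1468 and 1476 CPM in TEV plus reserpine (log2 changes 1.72 and 1.30, adjusted p = 0.00123 and 0.00849). Kcne3, a potassium channel subunit used as a tip cell marker, went the other way, at 63.1 and 75.6 CPM in vehicle, 5.28 and 8.48 CPM in TEV, and 102 and 108 CPM in TEV plus reserpine (log2 changes -3.30 and 3.91, adjusted p = 6.33e-05 and 0.0003). Igfbp3, which encodes a binding protein for insulin-like growth factors, was likewise lower with TEV (log2 change -2.08, adjusted p = 0.000434) and higher with reserpine (log2 change 3.12, adjusted p = 0.000578). Vegfa, the growth factor that guides tip cells, was lower in both steps (log2 changes -3.41 and -0.86, adjusted p = 9.82e-06 and 0.00569).

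**Figure D4:**
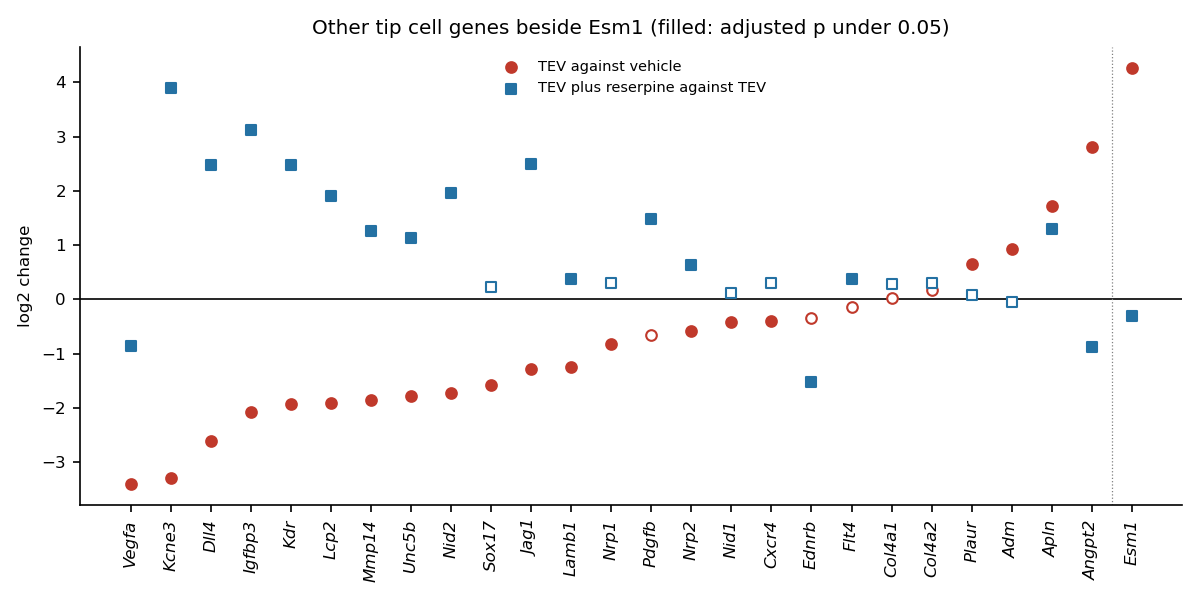
Log2 change of the 25 genes of the tip cell list, ordered by their change in TEV against vehicle (red circles), with TEV plus reserpine against TEV (blue squares), and Esm1 at the far right. Filled symbols have an adjusted p under 0.05, and since both comparisons use the TEV libraries, opposite values of a gene are partly tied to each other.

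In this bulk RNA, transcripts of the machinery for the glycosaminoglycan chain that endocan carries did not rise as a group with Esm1. Which cell types held them was not tested. Of 21 genes of dermatan and chondroitin sulphate synthesis, 3 were higher and 11 lower in TEV than in vehicle (median log2 change -0.61), and 7 were higher and 5 lower in TEV plus reserpine than in TEV (median 0.21). Chpf, a chondroitin polymerizing factor, fell from 149 and 146 CPM in vehicle to 3.78 and 3.67 CPM in TEV (log2 change -5.31, adjusted p = 3.12e-06), while Csgalnact1, which starts the chain, rose by 1.03 (adjusted p = 0.0117, but 0.0577 without vehicle replicate 1 and 0.0566 without TEV replicate 1). Among 19 tested genes of glycocalyx components and proteoglycans, Srgn (serglycin) alone was higher in TEV than in vehicle, at 7.06 and 8.91 CPM against 96.1 and 69.3 CPM (log2 change 3.38, adjusted p = 4.06e-05). In that list 12 were lower, among them Gpc1 (glypican-1; log2 change -5.03, adjusted p = 2.18e-06) and Sdc1 (syndecan-1; log2 change -2.72, adjusted p = 7.25e-05), and the median was -1.18.

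Egfl7 changed least among the genes that passed the test with TEV. It held 185 and 179 CPM in vehicle, 215 and 293 CPM in TEV, and 308 and 280.1 CPM in TEV plus reserpine. Vehicle lay below both other groups, which overlapped each other. The change with TEV was 0.48 on the log2 scale (SE 0.14, adjusted p = 0.0307), and without either vehicle library or without TEV replicate 2 it was not called (adjusted p = 0.0927, 0.117 and 0.0955). TEV plus reserpine differed from TEV by 0.21 (adjusted p = 0.296, 95% interval from -0.13 to 0.56, and -0.52 with the endothelial marker scaling) and from vehicle by 0.69 (adjusted p = 0.0103, but 0.0527 without vehicle replicate 2 and 0.0594 without TEV plus reserpine replicate 1). Without TEV replicate 2, the difference from TEV was 0.47 and passed the test (adjusted p = 0.0197).

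An intron of Egfl7 carries the endothelial microRNA miR-126, shown here because a change of the host transcript is often read as a change of the microRNA, which polyA libraries do not measure. Its 3p arm (RefSeq, GRCm38.p6, chr2:26591402-26591423, plus strand) has its seed, bases 2 to 8, in capitals.
mmu-miR-126a-3p: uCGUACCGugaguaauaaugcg
Egfl7 also overlaps Agpat2, a phospholipid synthesis gene on the other strand, and whether counting used the strand is not stated. Agpat2 had 14.8 and 16.5 CPM in vehicle, 102 and 37.3 CPM in TEV, and 10.4 and 10.2 CPM in TEV plus reserpine. The TEV library with the higher Agpat2 level was the one with the lower Egfl7 level, and whether reads were shared between them was not tested.

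Endothelial surface proteins outside the 8 were divided in TEV and mostly higher with reserpine. Of 30, 11 were higher and 13 lower in TEV than in vehicle (median log2 change -0.04), and 20 were higher and 1 lower in TEV plus reserpine than in TEV (median 0.54). The gene lower with reserpine was Ptprb, the endothelial phosphatase VE-PTP, at 243 and 214 CPM in vehicle, 970.4 and 822 CPM in TEV, and 273 and 291 CPM in TEV plus reserpine (log2 changes 1.97 and -1.67, adjusted p = 3.72e-05 and 0.000461). Its levels were ordered as those of Cd34, Emcn, Eng and Plvap, and its reserpine value was back near vehicle (log2 change 0.30, adjusted p = 0.0656). Procr, the endothelial protein C receptor, rose with TEV (log2 change 2.12, adjusted p = 1.07e-05) and was higher with reserpine (log2 change 0.35, adjusted p = 0.0201), though not without TEV replicate 1 or either TEV plus reserpine library (0.0535 to 0.103), and the marker scaling gave -0.40. Cldn5, the tight junction claudin of endothelium, fell by 2.93 with TEV (adjusted p = 0.000256) and rose by 2.51 with reserpine (adjusted p = 0.00159).

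The members were also set against Cdh5 and Pecam1 within each library, a comparison chosen after the levels were seen and given no test. Such a division shifts all members of a library alike, so it leaves the log differences between members unchanged. Cd34 per Cdh5 was 0.117 and 0.127 in vehicle, 1.03 and 0.901 in TEV, and 0.264 and 0.269 in TEV plus reserpine, so that the order of the groups was that of its CPM. Plvap per Pecam1 was 0.674 and 0.666 in vehicle, 0.822 and 0.831 in TEV, and 0.633 and 0.537 in TEV plus reserpine, and Eng per Pecam1 was 0.674 and 0.650 in vehicle, 0.955 and 0.977 in TEV, and 0.690 and 0.586 in TEV plus reserpine. Relative to Pecam1, then, reserpine brought Plvap below its vehicle ratios and Eng to overlap with them, although their CPM stayed above vehicle. Per Cdh5, both stayed above vehicle with reserpine. Plvap stood at 0.392 and 0.338 against 0.283 and 0.284 in vehicle, and Eng at 0.427 and 0.369 against 0.283 and 0.278. Egfl7 per Cdh5 was 0.106 and 0.103 in vehicle, 0.0945 and 0.131 in TEV, and 0.109 and 0.0995 in TEV plus reserpine, with all groups overlapping. Per Pecam1, Egfl7 was instead lower than in vehicle (0.251 and 0.240) in TEV (0.106 and 0.152) and in TEV plus reserpine (0.176 and 0.158). Mcam per Pecam1 fell from 0.647 and 0.645 in vehicle to 0.218 and 0.264 in TEV, with 0.342 and 0.325 in TEV plus reserpine.

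**Figure D5:**
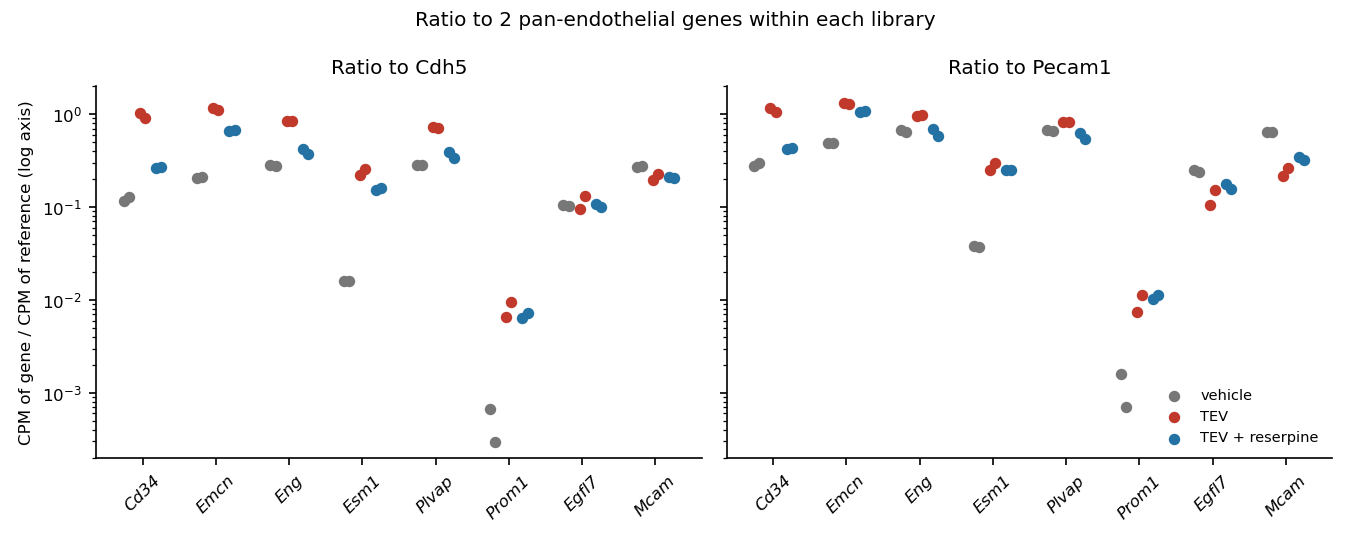
CPM of each member divided by the CPM of Cdh5 or of Pecam1 in the same library (log axis), 1 point per library. Ratios of Cd34, Emcn, Esm1 and Prom1 are higher in both vesicle groups than in vehicle with either reference, while those of Mcam are lower.

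Per kilobase of the longest coding transcript in GENCODE M21, the order of the members' levels differed between groups. In vehicle, Plvap led with 249.8 CPM per kb, followed by Mcam with 160.2, Eng with 143 and Emcn with 139, while Cd34 had 83.7, Esm1 13.4 and Prom1 0.209. In TEV, Emcn led with 998, followed by Cd34 with 853 and Plvap with 823, and Mcam, at 159, was the seventh. In TEV plus reserpine, Emcn led with 729.7 and Plvap followed with 518, while Cd34, at 294, was the fourth after Eng at 328. Neighbours that differed by less than the sum of their SDs were Eng and Emcn in vehicle, Cd34 and Plvap, and Egfl7 and Mcam, in TEV, and Eng and Cd34, and Egfl7 and Esm1, in TEV plus reserpine. The transcript in use was not measured, and for Emcn, Egfl7 and Mcam the median coding transcript is far shorter than the longest.

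The genes whose centred log2 CPM lay nearest to each member over the 6 libraries, by root mean square distance among 10430 genes that averaged 5 CPM or more, differed between members. For Cd34 they were Car8 (distance 0.146), Srpx2 (0.159) and Eya1 (0.202), and for Emcn Rab27a (0.103), Slfn9 (0.153) and Serpinb6b (0.187). For Eng they were Itga3 (0.0602), Dhh (0.0694) and Trim47 (0.0705), and for Plvap A230050P20Rik (0.0801), Tmem252 (0.0816) and Fam131a (0.0857). For Esm1 they were Sp5 (0.249), Bex1 (0.326) and Ifi27l2b (0.358), and for Prom1 they were Esm1 (0.428), Bex1 (0.540) and Sp5 (0.596). Esm1 and Prom1 thus shared a pair of neighbours, but Prom1 was not among the 3 nearest to Esm1. The distances of Prom1 were the largest of any member. For Egfl7 they were Dusp14 (0.0683), Arrb1 (0.0767) and Dkc1 (0.0770), and for Mcam Cd151 (0.0244), Aimp2 (0.0326) and Thumpd2 (0.0344). Distances were smallest for Mcam, which varied least across the libraries.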

How the data were processed

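RNA of 6 libraries (3 groups of 2) was sequenced from polyA TruSeq libraries as single-end reads, per the labels' protocols. The authors deposited estimated counts per gene symbol, made with kallisto 0.45.0, per the submitters' processing notes. Those notes list GRCh38, a human build, although the table holds mouse symbols, so positions come only from the mouse reference (GRCm38). The second deposited table holds 13098 of the genes with the same estimated counts and was not used further. Here the estimated counts were rounded, filtered with filterByExpr to 15035 genes, scaled by TMM and tested in 1 edgeR 4.0.16 quasi-likelihood model of all libraries (R 4.3.3), with Benjamini-Hochberg adjustment over all 15035 genes and a threshold of 0.05. Levels are CPM computed here. DESeq2 1.42.0, limma 3.58.1, other scalings (among them scaling to the geometric mean of 12 endothelial markers), filters, a replicate block and leaving out each library were tried. The script was tested on simulated data.

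The members and gene lists were chosen with earlier results of these data known, so they give no independent support to a pattern. Beside the members, the genes permitted in the text were Ch25h, the relatives and partners of the members, the 2 highest and 2 lowest of each other list in TEV against vehicle and in TEV plus reserpine against TEV (mean of at least 5 CPM), cell type markers and the 3 nearest genes of each member. Pecam1 and Cdh5 were taken as references after values were seen. Cavin-2 is listed under its older symbol Sdpr. Replicate numbers, also in the replicate block, are those of the sample titles, which differ from the deposited column names for both vesicle groups.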

Additional observations from a re-analysis of the deposited data

How the results depend on the processing

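Over 15 settings, Cd34, Emcn, Eng and Plvap kept direction and call in all 3 comparisons, and Esm1 and Prom1 in both comparisons with vehicle. Leaving out 1 library in turn gave between 6 and 7 members called for TEV against vehicle, 4 to 6 for TEV plus reserpine against TEV and 6 to 8 for TEV plus reserpine against vehicle. With a replicate block, 7, 4 and 7 members were called, and 6864, 3840 and 5094 genes. Differences between the replicates of a group, numbered as in the titles, were nearly uncorrelated between groups (correlations 0.02, 0.02 and -0.04). That does not settle if samples were paired, and pairing by the deposited column numbers was not tried. Without 1 library, the count of genes called for TEV plus reserpine against TEV ranged from 2124 to 4315, beside 4757 with all, and that against vehicle from 3572 to 5950, beside 5873.

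Scaling to the 12 endothelial markers, several of which fell with TEV, gave medians over all genes of 0.44, -0.74 and -0.34, and the share of higher calls became 75.8%, 5.48% and 20.8%. For TEV plus reserpine against TEV it called 9697 genes. Library size alone gave shares of 39.8%, 59.4% and 43.9%. Among values called in at least 1 of the settings compared, signs reversed under the marker scaling alone: for TEV against vehicle, Mcam to 0.42, Bmpr2 to 0.032, Cd151 to 0.40 and Aimp2 to 0.39, and for TEV plus reserpine against vehicle, Mcam to -0.024 and Cd151 to -0.033. For TEV plus reserpine against TEV, the log2 changes so reversed were Egfl7 -0.52, Mcam -0.44, Procr -0.40, Cav1 -0.22, Pacsin2 -0.67, Chpf -0.27, Galnt18 -0.74, Galnt2 -0.046, Acvrl1 -0.46, Wnt5a -0.45, Dusp14 -0.63, Arrb1 -0.42, Dkc1 -0.44, Cd151 -0.44 and Aimp2 -0.39. The cause was not tested. Values called in neither setting also crossed 0, among them, under the marker scaling, Lama4 for TEV against vehicle (0.21) and Prom1 (-0.67), Bmp4 (-0.28) and Thumpd2 (-0.39) for TEV plus reserpine against TEV, and, without TEV replicate 1, Mcam for TEV against vehicle (0.11) and Prom1 for TEV plus reserpine against TEV (-0.18). With 2 libraries a group, the calls of the small Egfl7, Mcam and Esm1 changes depended on the setting. Size alone did not decide this, since Emcn in TEV plus reserpine against TEV (log2 change -0.45) kept its call in all 15 settings.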
